A study of Mus musculus with 5 samples.

Results

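Glycolysis converts glucose to pyruvate and lactate in the cytosol, and gluconeogenesis runs several of the same steps in the other direction. The pathway matters in the lens because the tissue has no blood vessels and because its mature fibre cells lose their mitochondria, so that lens fibres draw on glycolysis for ATP. Most steps are served by isoenzymes, closely related proteins from separate genes that are used in different tissues, such as the muscle and brain types. The genes described here are those that the annotation deposited with the data places in the KEGG pathway ko00010, glycolysis and gluconeogenesis, and that had at least 10 counts in 2 or more of the 5 libraries. Of 22183 genes in the table, 69 carried this pathway and 46 met the count rule. The rule used no difference between the groups. All 46 passed the filter on low counts and were tested. The other 23 included 17 genes listed at 0 in every library, among them the liver enzymes Fbp1, Pck1, Pklr and G6pc.

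RNA came from whole lenses of mice at postnatal day 14, with 4 to 6 lenses pooled in each library. The cKO group (2 libraries) was a conditional knockout of Yap1, the gene of a transcriptional co-activator in the Hippo pathway. Its lenses came from Yap1f/f;Cre and Yap1f/+;Cre mice and were chosen by a severe eye phenotype, so that the group mixes homozygous and heterozygous floxed genotypes. The control group (Ctrl, 3 libraries) came from Yap1f/f and Yap1f/+ littermates without abnormalities, which the genotype field calls WT. All mice of both groups thus carried floxed Yap1 alleles, and which promoter drove Cre is not named in the labels. The labels call the pools biological replicates, and the p-values measure only the spread between them.

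The libraries held 22047580 to 25762802 expected counts. Yap1 stood at 3.76 and 2.27 CPM in cKO and at 5.49 to 7.19 CPM in Ctrl (CPM, counts scaled to library size by the TMM method), and its log2 fold change of −1.08 (SE 0.33) did not pass (edgeR adjusted p = 0.0759). Lens fibre markers were abundant in every library, with 9 markers summing to 225800 and 239900 CPM in cKO and 198900 to 238900 CPM in Ctrl. Macrophage markers summed to 131 and 36.3 CPM in cKO and to 1.51 to 3.25 CPM in Ctrl, and 6 of the 7 tested were higher. Of the 7 lens epithelium markers, 4 were lower, and the list summed to 1198 and 2479 CPM in cKO and 1907 to 2196 CPM in Ctrl. Most of this sum was Dkk3 and Sfrp1, which overlapped between the groups and were not called. Among the lower markers, Cdh1 had 1 and 0 counts in cKO and 440 to 986 in Ctrl. The others, Gja1, Npnt and Pax6, had log2 fold changes of −5.516, −2.177 and −1.871. Foxe3 lay below the controls in both cKO libraries but was not called. The Y-linked transcript Ddx3y had 0 counts in both cKO libraries and 30.4 to 39.6 CPM in Ctrl, so that the sex of the pooled mice and the genotype cannot be told apart. The part of these differences in the results below was not tested. In pooled tissue, fewer cells of a type and less RNA per cell cannot be told apart either.

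From phosphoglucose isomerase to enolase, every step but phosphofructokinase had 1 gene that was higher in cKO lenses, while neither Hk1 nor Hk2 was higher. The 23 members that act between the phosphorylation of glucose and lactate, here called the core, summed to 9363 and 10250 CPM in cKO 1 and 2 and to 5749, 5214 and 5234 CPM in Ctrl 1, 2 and 3. Every cKO library thus lay above every Ctrl library (two-sided exact permutation test, p = 0.1, which is the lowest value that 2 against 3 libraries can give). The core took 1.08 ± 0.192% of all counts in cKO (SD, n = 2) and 0.509 ± 0.0226% in Ctrl (SD, n = 3; exact p = 0.1). Of the 46 members, 8 were higher and 3 lower at an adjusted p under 0.05 (edgeR's quasi-likelihood test, with the Benjamini-Hochberg adjustment across the 11724 tested genes). Over all genes tested 13.5% were called, 5.76% higher and 7.73% lower, against 23.9% of the members. The core held 7 of the higher and 2 of the lower members, and 7 of its 11 enzyme steps had a member that was higher. The 23 members outside the core held 1 higher and 1 lower gene, a share of 8.7% called. The median log2 fold change was 0.31 over the members, 0.55 over the core and −0.06 over all genes tested. Scaling by total counts alone, without correction for the make-up of the libraries, moved the median of all genes to 0.16 and gave 13 members higher and 1 lower. The libraries of the groups did not overlap for 30 members, 20 with cKO above and 10 with cKO below, where 51.5% of all genes did not overlap (22.8% above and 28.7% below).

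**Figure D1:**
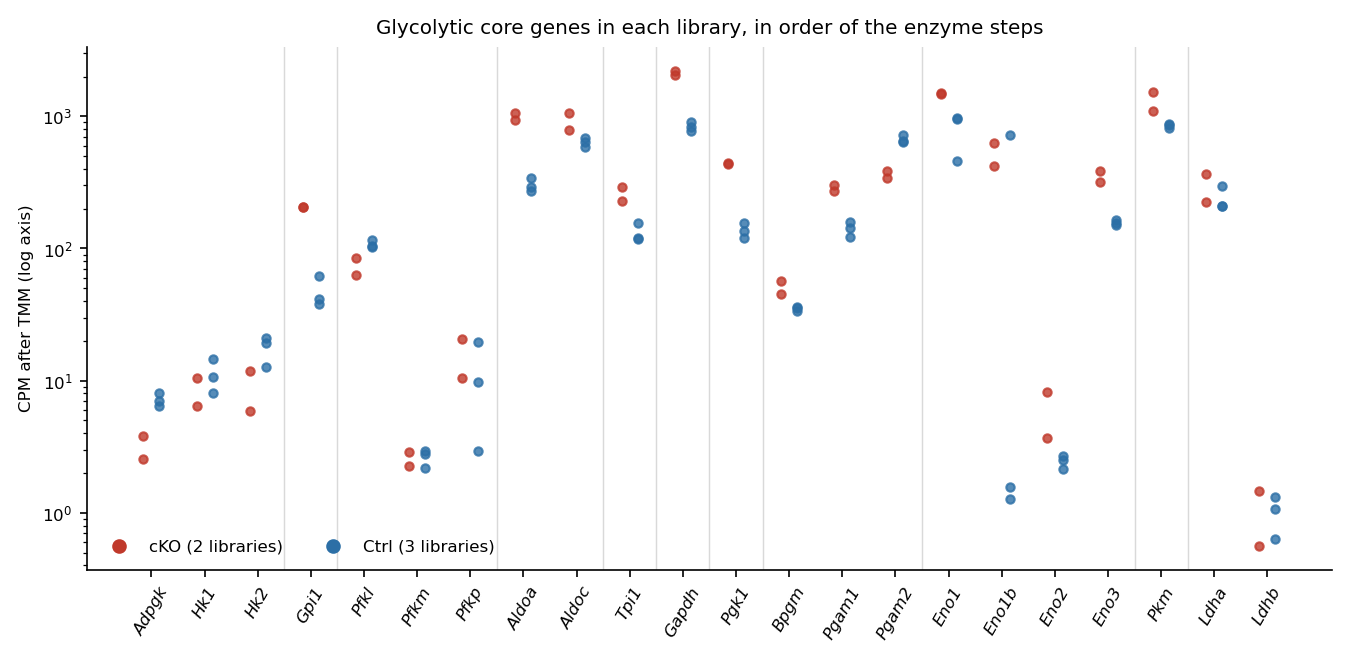
Abundance of 22 of the 23 core genes in each library, on a log axis of CPM after TMM scaling. Each point is 1 library, red for cKO and blue for Ctrl, and grey lines separate the enzyme steps in pathway order from the phosphorylation of glucose (left) to lactate dehydrogenase (right). Among the called genes, the cKO points lie above the Ctrl points for Gpi1, Aldoa, Tpi1, Gapdh, Pgk1, Pgam1 and Eno3 and below them for Adpgk and Pgam2. Of the genes not called, they lie above for Aldoc, Bpgm, Eno1, Eno2 and Pkm and below for Hk2 and Pfkl.

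Of the enzymes that bring glucose into the pathway, Hk1, Hk2 and Adpgk were present at low levels and none of these was higher. Hexokinases add a phosphate to glucose, and their levels are given as length-scaled abundance (FPKM, comparable between genes). Hk2, the inducible hexokinase, lay at 1.07 and 2.54 FPKM in cKO and 2.31 to 3.56 FPKM in Ctrl and Hk1, the widespread form, at 1.89 and 3.90 against 2.23 to 4.00 FPKM. Neither passed, with log2 fold changes of −0.99 for Hk2 (SE 0.37, edgeR adjusted p = 0.125) and −0.39 for Hk1 (SE 0.34, edgeR adjusted p = 0.477). Adpgk, an enzyme of the endoplasmic reticulum that phosphorylates glucose with ADP in place of ATP, had 2.57 and 3.80 CPM in cKO and 6.40, 7.03 and 8.10 CPM in Ctrl. Its cKO libraries lay below all controls, and its fall of −1.17 in log2 units passed (SE 0.29; adjusted p = 0.049, edgeR). This call sat at the threshold and was lost under 7 of the other settings tried that kept all 5 libraries and without any 1 Ctrl library.

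Gpi1 encodes the isomerase that turns glucose-6-phosphate into fructose-6-phosphate, and it had the steepest rise of the core. It was measured at 204.9 and 206.0 CPM in cKO 1 and 2 and at 62.1, 41.5 and 37.8 CPM in Ctrl 1, 2 and 3. The cKO libraries were nearly alike and lay far above the highest control. The log2 fold change was 2.12 (SE 0.23, edgeR adjusted p = 0.00756), a 4.36-fold difference. It was not called without Ctrl 2 or without Ctrl 3 (edgeR adjusted p = 0.0739 and 0.0504).

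Phosphofructokinase, the committed step of glycolysis and a main point of its control, did not follow the steps around it. The liver type Pfkl made up most of the family, at 67.4 and 85.2% of phosphofructokinase FPKM in cKO and 82.8 to 94.9% in Ctrl. In CPM it was measured at 62.8 and 85.3 in cKO and 115.8, 103.9 and 103.1 in Ctrl, so that both cKO libraries lay below every control. In FPKM the groups overlapped, at 19.2 and 30.3 in cKO and 27.4 to 35.3 in Ctrl. The log2 fold change of −0.54 (SE 0.18) did not pass (edgeR adjusted p = 0.09). The muscle type Pfkm was low in all libraries (2.20 to 2.96 CPM). The platelet type Pfkp scattered within groups, at 20.6 and 10.4 CPM in cKO and 19.5, 9.71 and 2.92 CPM in Ctrl (0.54, SE 0.71, edgeR adjusted p = 0.657). Counts of Pfkp were fractional in all 5 libraries, and their fractions were completed to whole numbers by those of Pitrm1, a gene whose span overlaps Pfkp in the RefSeq gene table. The split between these neighbours is therefore uncertain.

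Aldolase splits the 6-carbon sugar into a pair of 3-carbon ones, and here the leading isoform by FPKM differed between the groups. Aldoa, the muscle and general type, stood at 1065 and 942 CPM in cKO 1 and 2 and at 344, 294 and 273 CPM in Ctrl 1, 2 and 3. It rose by 1.72 (SE 0.16, edgeR adjusted p = 0.00555), or 3.30-fold, with no overlap. Aldoc, the brain type, was at 796 and 1069 CPM in cKO and 584, 644 and 688 CPM in Ctrl. Its libraries did not overlap either, but the change of 0.55 (SE 0.18) did not pass (edgeR adjusted p = 0.0901). On the length-scaled measure Aldoc exceeded Aldoa in each Ctrl library, with Aldoa at 43.0, 36.6 and 33.4% of aldolase FPKM. In both cKO libraries Aldoa was the larger by FPKM, at 63.0 and 52.7%, although by CPM Aldoc was the larger in cKO 2. The share of Aldoa was 57.9 ± 7.24% in cKO (SD, n = 2) and 37.7 ± 4.88% in Ctrl (SD, n = 3; exact permutation test, two-sided p = 0.1, 0.367 after Benjamini-Hochberg adjustment over the 11 isoform shares compared).

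**Figure D2:**
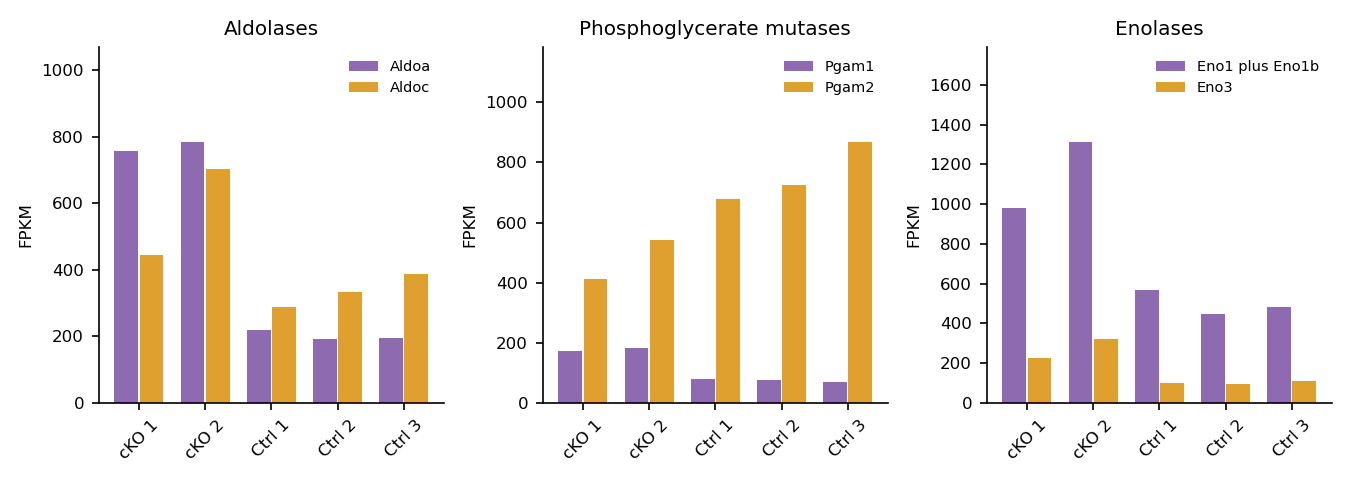
Length-scaled abundance (FPKM) of the main isoforms of aldolase, phosphoglycerate mutase and enolase, 1 pair of bars per library and axes from 0. Aldoa passes Aldoc only in the cKO libraries, Pgam2 exceeds Pgam1 in all 5 libraries but by less in cKO, and Eno3 stays below Eno1 plus Eno1b throughout.

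The next 3 steps, each served by 1 expressed gene, all rose. Tpi1, the isomerase that interconverts the 3-carbon sugars, had 292.0 and 227.8 CPM in cKO and 155.1, 119.3 and 117.3 CPM in Ctrl, a rise of 0.99 (SE 0.19, edgeR adjusted p = 0.0275). Gapdh, the NADH-producing dehydrogenase that is often used as a reference gene, was the most abundant core gene in cKO. Its values were 2063 and 2214 CPM in cKO and 907, 828 and 779 CPM in Ctrl, and it rose by 1.35 (SE 0.14, edgeR adjusted p = 0.00727). The copies Gm3839 and Gm10358 shared reads with Gapdh, but Gapdh held 99.8 to 99.9% of the sum of the 3 in every library, and the sum rose by the same amount (1.35, SE 0.14, edgeR adjusted p = 0.00676). Pgk1, which makes the first ATP of the pathway and lies on the X chromosome, was measured at 434.6 and 445.6 CPM in cKO and at 157.0, 135.5 and 120.3 CPM in Ctrl. It rose by 1.68 (SE 0.16, edgeR adjusted p = 0.00581). For all 3 genes every cKO library lay above every Ctrl library. Pdha1, the other X-linked member, had 40.4 and 38.3 CPM in cKO and 27.8 to 31.7 CPM in Ctrl and did not pass (0.39, SE 0.14, edgeR adjusted p = 0.109).

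Phosphoglycerate mutase was the step where isoforms went in opposite directions. Pgam1, the brain and general type, stood at 303.2 and 273.1 CPM in cKO 1 and 2 and at 158.6, 142.6 and 123.1 CPM in Ctrl 1, 2 and 3. Pgam2, the muscle type, went the other way, with 342.8 and 383.6 CPM in cKO and 640.4, 654.4 and 721.0 CPM in Ctrl. Neither gene's libraries overlapped between the groups. Pgam1 rose by 1.03 (SE 0.16, edgeR adjusted p = 0.017), whereas Pgam2 fell by 0.89 (SE 0.15, edgeR adjusted p = 0.0199). Under total-count scaling Pgam2 kept its sign but was not called (−0.67, edgeR adjusted p = 0.0603). Pgam2 was the leading core transcript of control lenses by length, at 679 to 868 FPKM against 571 to 598 FPKM for Gapdh. Its share of phosphoglycerate mutase FPKM was 70.5 and 74.8% in cKO and 89.5, 90.7 and 92.5% in Ctrl (exact permutation p = 0.1, 0.367 after Benjamini-Hochberg adjustment over the 11 shares). Summed over both genes and Bpgm, the step lay at 691 and 713 CPM in cKO and 830 to 880 CPM in Ctrl, lower in cKO while the steps beside it were higher. Bpgm, which makes the haemoglobin regulator 2,3-bisphosphoglycerate in red cells, did not pass (0.54, SE 0.15, edgeR adjusted p = 0.0646). The erythroid marker Slc4a1 was at 0 in all 5 libraries, and the erythroid list summed to 65.6 and 2.20 CPM in cKO and to 50.01, 5.42 and 20.2 CPM in Ctrl, with none of 4 tested called. The 8 muscle markers summed to 250.1 and 249.0 CPM in cKO and 133.6 to 203.1 CPM in Ctrl, nearly all of it Acta2, and none of the 4 tested was called. Among the striated-muscle markers, Des had 8 and 0 counts in cKO and 113, 64 and 0 in Ctrl, and Ckm had 92 and 7 against 38, 14 and 28. Mylpf had 110 and 11 against 6, 7 and 9, Acta1 had 127 and 4 in cKO and 0 in Ctrl, and Myh4 had 3 and 0 in cKO and 0 in Ctrl. Their part in the result for Pgam2 was not tested.

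Enolase, which forms phosphoenolpyruvate, had a gene and a near-identical copy whose split of reads differed widely between libraries. Eno1, the general type, was given 36364 and 40475 counts in the cKO libraries, against 9880, 19987 and 24963 in Ctrl 1, 2 and 3. Eno1b, a retrotransposed copy, was given 10337 and 17024 in cKO but 15457, 32 and 33 in Ctrl, which is 61.0% of the pair's reads in Ctrl 1 and 0.16 and 0.13% in Ctrl 2 and 3. The fractional parts of the pair added up to whole numbers in every library. What made the split differ between libraries was not tested. In GENCODE's transcripts (release M21, build GRCm38) the coding sequences of Eno1 and Eno1b are both 1305 bases long and differ at 8 positions, all of them at position 3 of a codon. The longest stretch without a difference is 725 bases, and 58.4% of all stretches of 150 bases of Eno1 also occur in Eno1b. Eno3, by comparison, differs from Eno1 at 304 of the positions. The stretch of the Eno1 coding sequence that holds the most of these differences is shown, from position 697 to 846 counted from the start codon, with the 4 bases that differ from Eno1b in capitals.
Eno1: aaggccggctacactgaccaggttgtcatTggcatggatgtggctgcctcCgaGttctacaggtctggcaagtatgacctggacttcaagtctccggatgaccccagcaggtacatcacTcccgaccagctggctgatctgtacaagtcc
The other 4 differing positions are 1047, 1056, 1224 and 1233. Untranslated sequence was not compared.

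**Figure D3:**
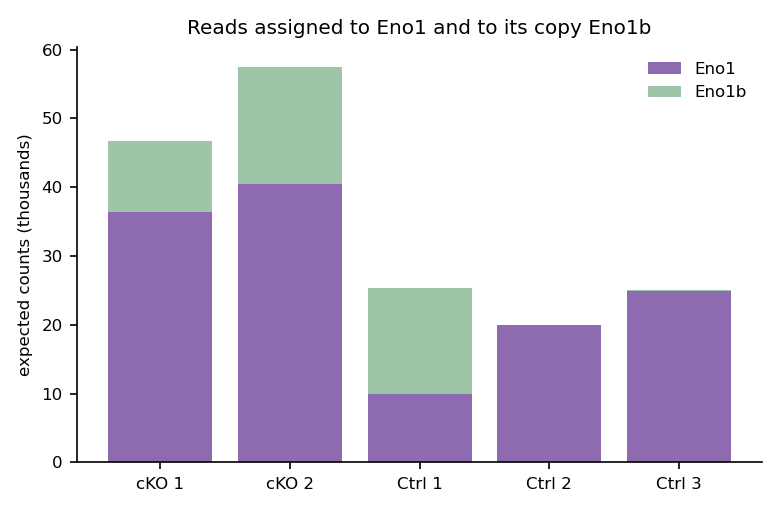
Expected counts deposited for Eno1 and to its copy Eno1b, stacked for each library. The split differs between libraries of the same group (Eno1b has 61.0% in Ctrl 1 and under 1% in Ctrl 2 and 3), while the sums separate cKO from Ctrl.

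The sum of Eno1 and Eno1b was 1907 and 2142 CPM in cKO and 1175, 977 and 960 CPM in Ctrl, with no overlap. Alone, Eno1 did not pass (0.91, SE 0.33, edgeR adjusted p = 0.115), nor did Eno1b (1.14, SE 2.17, edgeR adjusted p = 0.762). Fitted as 1 gene, a step chosen after the split had been seen, the sum rose by 0.97 (SE 0.16, edgeR adjusted p = 0.0192), which brings the higher members to 9. Eno3, the muscle type, had whole counts in all libraries. It was measured at 317.3 and 386.3 CPM in cKO and at 163.5, 149.4 and 155.6 CPM in Ctrl, and rose by 1.17 (SE 0.15, edgeR adjusted p = 0.0111). Its share of enolase FPKM was 18.5 and 19.6% in cKO and 15.2 to 18.5% in Ctrl, and the groups overlapped (exact permutation p = 0.3). The neuronal type Eno2 was low, at 8.21 and 3.69 CPM in cKO and 2.15 to 2.69 CPM in Ctrl, and did not pass (1.28, SE 0.40, edgeR adjusted p = 0.0835). Retinal neuron markers summed to 11.8 and 2.31 CPM in cKO and 2.84 to 45.7 CPM in Ctrl.

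No gene of the last steps, pyruvate kinase and lactate dehydrogenase, passed the test. Pkm encodes pyruvate kinase, which makes the second ATP, and the count does not separate its M1 and M2 splice forms. It was at 1101 and 1534 CPM in cKO and 872, 815 and 856 CPM in Ctrl. Both cKO libraries lay above the controls, but they differed from each other, and the change of 0.64 (SE 0.18) did not pass (edgeR adjusted p = 0.0634). Ldha, the lactate dehydrogenase that favours lactate, had 368 and 226 CPM in cKO and 299.0, 209.8 and 211.2 CPM in Ctrl, and the groups overlapped (0.31, SE 0.27, edgeR adjusted p = 0.473). Ldhb, the heart type, was low, with 13 to 36 counts in a library. Ldha made up 99.2 to 99.7% of lactate dehydrogenase FPKM in every library.

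**Figure D4:**
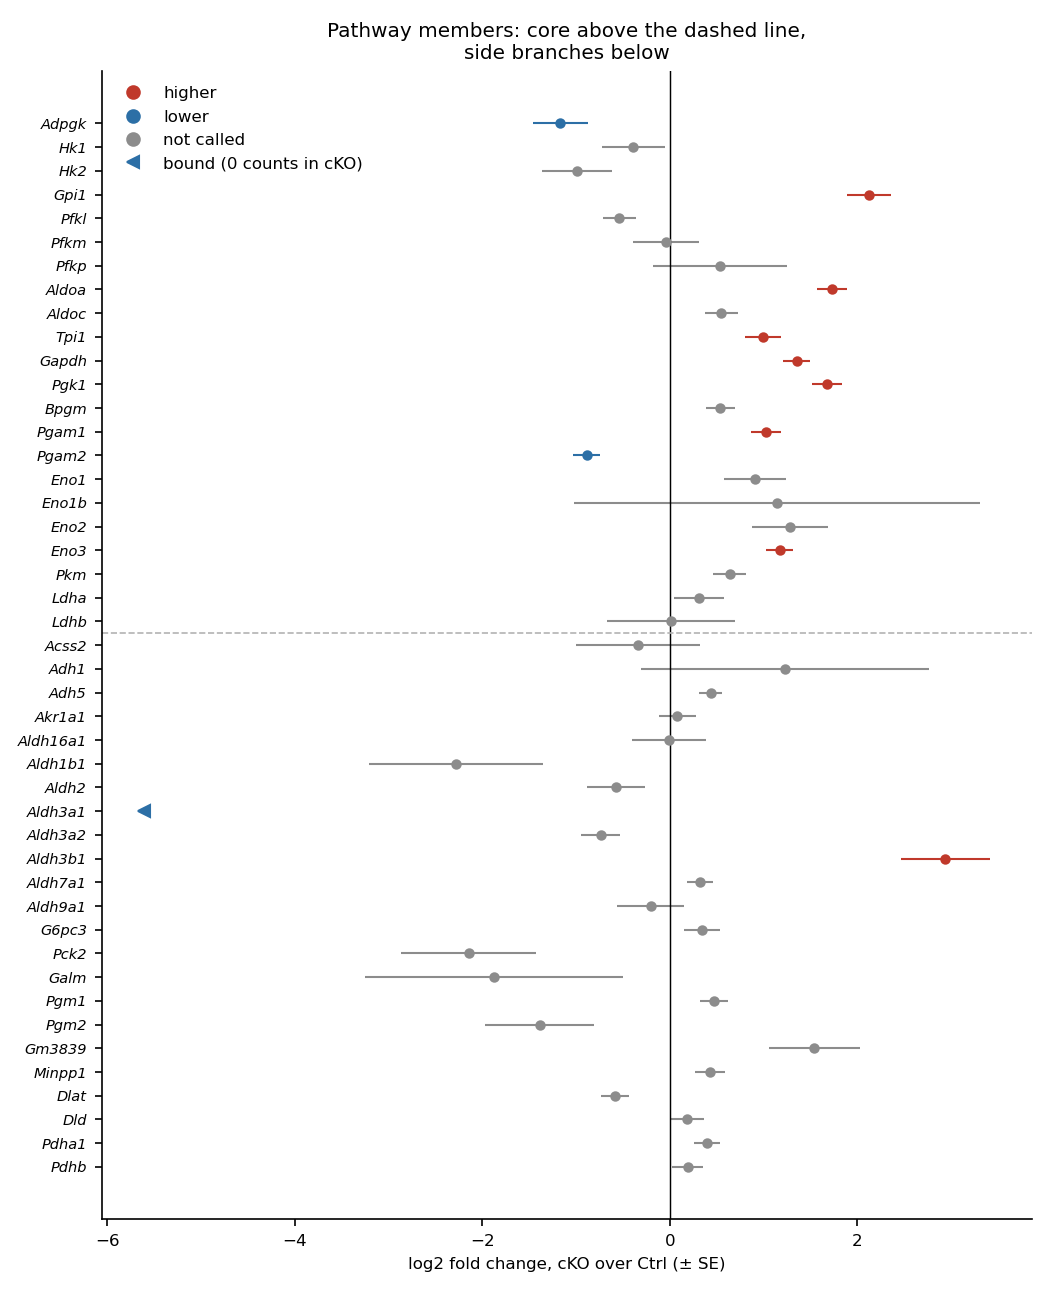
Log2 fold change of cKO over Ctrl for 45 of the 46 members, with the standard error as a bar, red for higher, blue for lower and grey for not called. Core genes are above the dashed line in pathway order and side branches below it. The triangle for Aldh3a1 is a bound, since both cKO libraries had 0 counts.

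Side branches of the pathway contributed 1 gene in each direction, both aldehyde dehydrogenases, which oxidise aldehydes to acids. Aldh3a1, a soluble protein abundant in the cornea of many mammals, had 0 counts in both cKO libraries and 190, 116 and 70 counts in Ctrl 1, 2 and 3 (8.82, 5.66 and 2.69 CPM). A count of 0 allows 3 counts in each cKO library (0.123 and 0.112 CPM). Against these the Ctrl mean of 5.72 CPM was at least 48.9-fold higher, and Aldh3a1 was called lower (edgeR adjusted p = 0.0141). It met the count rule through the Ctrl libraries only. The call was lost without Ctrl 1 or without Ctrl 2 (edgeR adjusted p = 0.0706 and 0.0958). The corneal keratins Krt12, Krt5 and Krt14 were at 0 in all 5 libraries, and Krt15 had 0.346 to 0.835 CPM in Ctrl and 0 in cKO. Aldh3b1, which acts on lipid-derived aldehydes, had 3.84 and 9.39 CPM in cKO and 0.928, 0.683 and 0.960 CPM in Ctrl. It rose by 2.94 (SE 0.47, edgeR adjusted p = 0.0191), 7.66-fold, with the higher value in cKO 2. The summed macrophage markers were higher in cKO 1 (131 CPM) than in cKO 2 (36.3 CPM). Of that list only Cx3cr1 went the other way, with 6 counts in cKO 1 and 35 in cKO 2. The part of macrophages in the rise of Aldh3b1 was not tested.

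The remaining 21 side-branch members did not pass, with log2 fold changes from −2.28 to 1.54. Aldh7a1, the most abundant aldehyde dehydrogenase, stood at 95.4 and 115.0 CPM in cKO and 82.2 to 87.1 CPM in Ctrl (0.32, SE 0.14, edgeR adjusted p = 0.178). Its counts were fractional and completed by those of Phax, whose span overlaps it in the RefSeq table. Akr1a1, an aldehyde reductase and the most abundant side-branch transcript, overlapped between the groups, at 333.8 and 224.6 CPM in cKO and 248.9 to 278.1 CPM in Ctrl (0.08, SE 0.20, edgeR adjusted p = 0.828). Among the 4 genes of the pyruvate dehydrogenase complex, which links glycolysis to the mitochondrion, Pdhb led by FPKM and was at 52.4 and 41.0 CPM in cKO and 38.3 to 44.4 CPM in Ctrl (0.19, SE 0.16, edgeR adjusted p = 0.478). Dlat, its acetyltransferase subunit, lay lower in both cKO libraries (15.2 and 16.3 against 22.1 to 24.7 CPM; −0.58, SE 0.15, edgeR adjusted p = 0.0527). Of the enzymes particular to gluconeogenesis, only G6pc3, the widely expressed glucose-6-phosphatase, and Pck2 met the count rule. G6pc3 was at 18.1 and 24.4 CPM in cKO and 14.8 to 17.8 CPM in Ctrl (0.34, SE 0.20, edgeR adjusted p = 0.281), and Pck2 had 6 to 40 counts in a library. Pgm1, which connects glycogen with glycolysis, was at 96.7 and 92.7 CPM in cKO and 61.7 to 78.2 CPM in Ctrl (0.47, SE 0.15, edgeR adjusted p = 0.0898). Acss2, the cytosolic acetyl-CoA synthetase, overlapped between the groups at 14 to 51 counts in a library (−0.34, SE 0.66, edgeR adjusted p = 0.766).

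All 11 called members kept their direction under every setting tried, but their calls depended on the number of control libraries. Without Ctrl 1, 2 or 3, 3, 0 and 3 of the 11 calls remained, and 65, 21 and 82 genes of the whole table were called in place of 1581. Aldoa and Pgk1 were lost only without Ctrl 2 (edgeR adjusted p = 0.0677 for each).

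The promoters of 6 members are shown, as genes that rose (Pgk1, Gapdh) or as the isoform pairs that differed (Pgam1 and Pgam2, Aldoa and Aldoc). Other genes that rose, among them Gpi1 and Tpi1, are not shown. The windows are RefSeq's, build GRCm38.p6, from 250 bases before to 50 after the start, on the strand of the gene. Capitals mark ACGTG and GCGTG, the core of the hypoxia-response element bound by HIF factors, and GGAATG, the core bound by the TEAD partners of YAP, each on either strand. For Aldoa (3 starts) and Aldoc (2 starts) the window with the most matches was taken.
Pgk1 (chrX:106186850-106187149, plus strand): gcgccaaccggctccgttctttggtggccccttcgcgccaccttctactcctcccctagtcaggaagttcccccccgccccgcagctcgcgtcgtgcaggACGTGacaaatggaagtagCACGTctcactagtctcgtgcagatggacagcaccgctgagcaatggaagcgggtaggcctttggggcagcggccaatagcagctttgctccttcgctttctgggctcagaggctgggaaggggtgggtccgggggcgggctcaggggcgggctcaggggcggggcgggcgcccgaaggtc
Gapdh (chr6:125165724-125166023, minus strand): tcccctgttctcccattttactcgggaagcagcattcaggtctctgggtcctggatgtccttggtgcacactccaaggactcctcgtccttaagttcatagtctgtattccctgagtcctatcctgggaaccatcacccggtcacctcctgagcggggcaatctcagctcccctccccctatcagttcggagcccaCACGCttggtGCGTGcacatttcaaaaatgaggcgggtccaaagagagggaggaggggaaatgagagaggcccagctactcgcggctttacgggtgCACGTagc
Pgam1 (chr19:41911621-41911920, plus strand): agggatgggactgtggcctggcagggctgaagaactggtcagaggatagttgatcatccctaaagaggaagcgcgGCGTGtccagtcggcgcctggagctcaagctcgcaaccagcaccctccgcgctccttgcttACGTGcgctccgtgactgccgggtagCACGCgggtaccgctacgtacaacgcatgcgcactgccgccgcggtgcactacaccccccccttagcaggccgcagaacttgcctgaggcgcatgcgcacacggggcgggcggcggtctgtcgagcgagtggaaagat
Pgam2 (chr11:5803747-5804046, minus strand): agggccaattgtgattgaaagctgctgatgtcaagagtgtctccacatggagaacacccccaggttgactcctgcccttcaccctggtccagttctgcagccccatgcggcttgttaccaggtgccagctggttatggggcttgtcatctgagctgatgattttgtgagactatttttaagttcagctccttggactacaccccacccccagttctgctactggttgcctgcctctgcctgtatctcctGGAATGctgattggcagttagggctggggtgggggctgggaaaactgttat
Aldoa (chr7:126799205-126799504, minus strand): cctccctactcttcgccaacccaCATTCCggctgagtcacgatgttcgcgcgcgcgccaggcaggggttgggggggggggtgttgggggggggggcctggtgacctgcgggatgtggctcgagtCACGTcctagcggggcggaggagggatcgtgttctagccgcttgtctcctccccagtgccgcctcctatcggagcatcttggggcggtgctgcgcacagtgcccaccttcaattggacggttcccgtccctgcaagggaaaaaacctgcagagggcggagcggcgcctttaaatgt
Aldoc (chr11:78322823-78323122, plus strand): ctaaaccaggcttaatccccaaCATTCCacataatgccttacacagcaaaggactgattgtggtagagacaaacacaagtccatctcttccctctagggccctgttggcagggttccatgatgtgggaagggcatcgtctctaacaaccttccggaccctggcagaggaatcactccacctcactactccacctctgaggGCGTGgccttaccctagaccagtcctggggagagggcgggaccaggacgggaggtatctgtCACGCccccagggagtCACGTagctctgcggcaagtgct
Matches to ACGTG or GCGTG numbered 2 in Pgk1, 3 in Gapdh, 3 in Pgam1, 1 in Aldoa and 3 in Aldoc, and there was none in the window of Pgam2. GGAATG occurred 1 time each in the windows of Pgam2, Aldoa and Aldoc. Of the 46 members, 39 were in the promoter table, and ACGTG or GCGTG was in a window of 30 of them (76.9%), against 68.9% of the genes tested here that the table holds and 46.7% of all its genes. ACGTG alone was in 53.8% of the members and 30.05% of the tested genes, GCGTG in 53.8 and 57.2%, the E-box CACGTG, which overlaps ACGTG, in 12.8 and 12.1%, and GGAATG in 20.5 and 14.2%. The median GC content of the windows was 58.0% for the members and 61.0% for the tested genes. Of the 8 higher members 5 had ACGTG or GCGTG, beside the 68.9% of tested genes, and 1 of the 2 lower members in the promoter table did. The higher members without either were Gpi1, which had the steepest rise of the core, Tpi1 and Aldh3b1. A match describes the letters of these windows and is not evidence of binding.

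Glucose enters cells by transporters and lactate leaves by others, and in this list 2 of 12 tested genes were higher and 2 lower (33.3% called, against 13.5% of all genes). Bsg, a partner protein of lactate transporters, was the most abundant of the list and did not pass, although both cKO libraries (303.4 and 318.2 CPM) lay above the controls (249.2 to 295.7 CPM; 0.18, SE 0.14, edgeR adjusted p = 0.421). Slc2a1, the most abundant glucose transporter, was at 113.6 and 169.4 CPM in cKO and 356.7, 229.9 and 247.4 CPM in Ctrl. Both cKO libraries lay below the controls, but the change of −0.97 (SE 0.27) did not pass (edgeR adjusted p = 0.0628). Slc2a8, an intracellular glucose transporter, had 15.6 and 36.9 CPM in cKO and 6.68 to 7.71 CPM in Ctrl and rose by 1.89 (SE 0.35, edgeR adjusted p = 0.026). Emb, an accessory protein of lactate transporters, had 275 and 374 CPM in cKO and 119.4 to 122.5 CPM in Ctrl and rose by 1.42 (SE 0.17, edgeR adjusted p = 0.00957). The monocarboxylate transporter Slc16a1 went from 15.03, 9.13 and 13.9 CPM in Ctrl to 4.98 and 3.99 CPM in cKO and fell by 1.501 (SE 0.29, edgeR adjusted p = 0.0283). Slc2a13, a myo-inositol transporter, had 0 counts in cKO and 8 to 23 in Ctrl and was called lower (edgeR adjusted p = 0.042). Its Ctrl mean of 0.581 CPM was at least 4.96-fold above 3 counts in each cKO library. Among 9 tested regulators of flux, 1 was higher and none was lower, a share of 11.1% called that is near the 13.5% of all genes. The higher gene was Pdk3, a kinase that turns pyruvate dehydrogenase off (18.5 and 15.3 against 7.79 to 8.29 CPM, log2 fold change 1.06, SE 0.18, edgeR adjusted p = 0.0211). Pdk2, a kinase of the same kind, lay below the controls in both cKO libraries (12.05 and 7.49 against 18.3 to 33.75 CPM). It did not pass (−1.29, SE 0.36, edgeR adjusted p = 0.0617). Pdk1, another, overlapped between the groups (0.0011, SE 0.33, edgeR adjusted p = 0.998). Pfkfb3, which makes an activator of phosphofructokinase and led this list, overlapped between the groups (−0.0041, SE 0.22, edgeR adjusted p = 0.993).

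Genes of the hypoxia pathway outside glycolysis went both ways, with 3 of 21 tested higher and 3 lower. This is 28.6% called, against 13.5% of all genes tested (5.76% higher and 7.73% lower), and the median log2 fold change was 0.11. Hif1a, the oxygen-regulated subunit of the HIF factor that controls many glycolytic genes, was at 34.2 and 23.0 CPM in cKO and 139.3, 137.0 and 217.2 CPM in Ctrl. It fell by 2.52 (SE 0.31, edgeR adjusted p = 0.0102), with no overlap. Hif1an and Vhl, which inhibit HIF and mark it for degradation, both fell, Hif1an by 1.28 (SE 0.22, edgeR adjusted p = 0.021) and Vhl by 0.86 (SE 0.21, edgeR adjusted p = 0.0484). Egln1, the oxygen-sensing hydroxylase of HIF, had 12.6 and 16.2 CPM in cKO and 4.76 to 7.75 CPM in Ctrl, a called rise of 1.15 (SE 0.27; adjusted p = 0.0415, edgeR). The HIF targets Bnip3, a mitophagy receptor, and Vegfa, the vascular growth factor, were higher. Bnip3 had 427.4 and 275.5 CPM in cKO and 122.5, 94.5 and 80.2 CPM in Ctrl (1.83, SE 0.26, edgeR adjusted p = 0.0141), and Vegfa had 5.35 and 16.6 CPM against 2.51, 2.73 and 3.38 CPM (1.93, SE 0.48, edgeR adjusted p = 0.0484). The most abundant gene of the list, Ndrg1, was at 723 and 451 CPM in cKO and 852 to 1032 CPM in Ctrl and did not pass (−0.68, SE 0.23, edgeR adjusted p = 0.1). Car9 lay below the controls (0.368 and 0.298 against 1.305 to 5.57 CPM) and Ankrd37 above them (10.01 and 6.59 against 0.998 to 3.43 CPM). Neither passed (−3.05, SE 0.86, and 1.85, SE 0.52, edgeR adjusted p = 0.0646 and 0.0628). Of the 14 called genes in the lists next to the pathway, 0, 0 and 1 (Hif1a) stayed called without Ctrl 1, 2 or 3, and Hif1a and Bnip3 stayed called with the replicate numbers as a block.

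**Figure D5:**
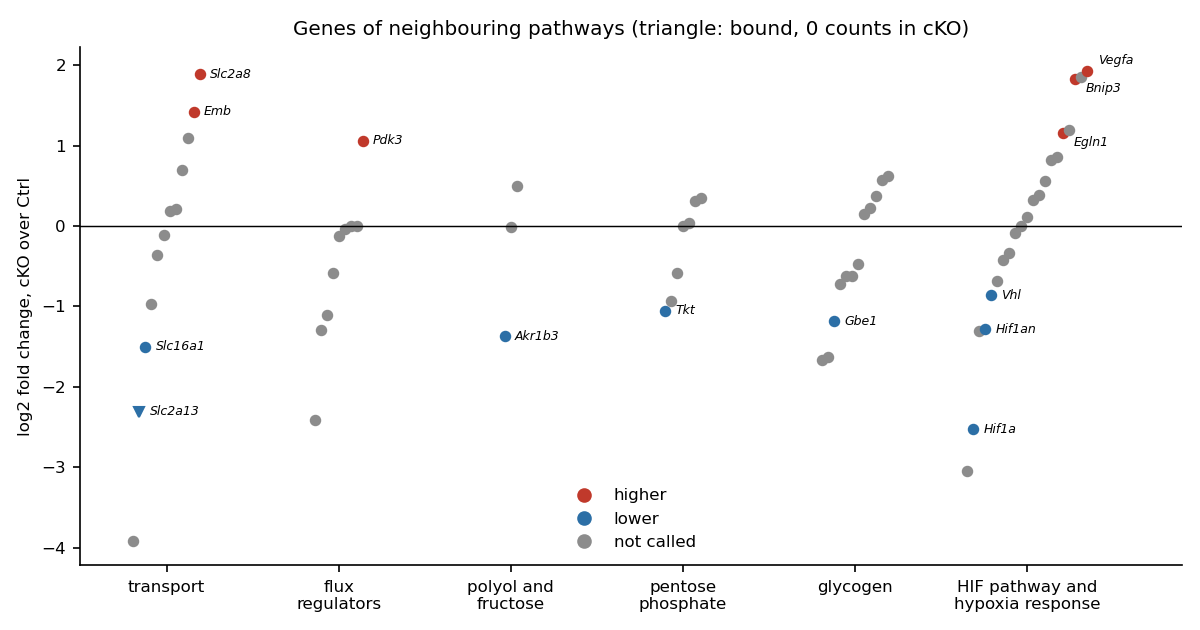
Log2 fold changes of cKO over Ctrl for the tested genes of 6 lists next to the pathway, 1 point per gene, ordered within each list, red for higher, blue for lower and grey for not called. Called genes are named, and the triangle for Slc2a13 is a bound from 0 counts in cKO.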

How the data were processed

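Poly(A) RNA of 5 lens pools (cKO, 2; Ctrl, 3) was analysed from 1 table. Per the submitters' processing notes, RSEM, Trimmomatic 0.18.0 and the build GRCm39 were used; for the aligner, strand setting and each tool's role, nothing: not given in the sources used here. Expected counts, deposited unscaled, are estimated by the authors; 6.03 to 7.47% of values in a library were not whole, which marks shared reads, and counts were rounded here. The deposited FPKM values were length-scaled by the authors and used for comparisons between genes. CPM are counts scaled to library size by TMM, as mean ± SD where given. Genes were filtered with filterByExpr (minimum count 10, total 15), which left 11724, and edgeR's quasi-likelihood test (edgeR 4.0.16, R 4.3.3) set the groups against each other with no block. Benjamini-Hochberg adjustment covered every tested gene, with calls under 0.05; "rose", "fell", "higher" and "lower" refer to called genes unless values of libraries are compared. SE came from the F statistic. The fit was also run on counts simulated from its own estimates, which cannot show whether the calls in these pools are right. Totals of 22047580 to 25762802 counts set the precision; a count of 0 allows 3 counts, for counting error only. Members, lists and tests were chosen with earlier results of these data known. Named were the called members and the most abundant of each step or branch, and, in other lists, called genes and the most abundant. Other members and listed genes that are named, the sequences shown and the assignment of side branches were chosen after values were seen. The planned Pkm share was dropped because Pklr is at 0 in every library. A few genes of the lists, 1 of them a core member, are counted in the totals but not reported here by name. DESeq2 1.42.0 and limma 3.58.1 served as alternatives. Coordinates of sequences are RefSeq's in GRCm38.p6, another build than the table's.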

Additional observations from a re-analysis of the deposited data

How the results depend on the processing

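The direction of all 11 called members held in the 14 alternatives of the fit. With DESeq2, 14 members were higher and 6 lower (core, 11 higher) and 2727 genes were called in all. Limma on log2(FPKM + 1) and on log2(FPKM + 0.1) gave 13 higher members each, and total counts gave 13 higher and 1 lower. The core had 1 lower member with DESeq2 size factors, with library sizes without the 16 crystallins, without a filter and in both limma fits, and 0 with total counts. Adpgk lost its call in each of these. Leaving out 1 library gave 0 to 16 higher and 0 to 9 lower members, 0 to 10 higher and 0 to 4 lower core members, and 21 to 5161 called genes. Without Ctrl 2, where edgeR called 0 members, 10 were higher and 6 lower at an unadjusted p under 0.05. With 1 cKO library left, the lone library was assumed to have the spread of the controls. The replicate numbers are shared by the groups, and the deviations of same-numbered libraries from their group means correlated at 0.111 and −0.083. With 2 cKO libraries these deviations mirror each other. The correlations therefore cannot show whether the numbers mark a pairing. The fit with the replicate block gave 3 higher members (all of them core), 1 lower member (0 core) and 175 called genes. Results that were not called changed sign in some settings. Acss2 had 0.0081 with FPKM + 1. With 1 library left out, Acss2 ranged from −1.34 to 0.22, Akr1a1 from −0.25 to 0.34, Ldha from −0.098 to 0.62 and Pdhb from −0.014 to 0.35, each crossing 0 without cKO 1. The Hk1 share of hexokinase differed by 0.0012 percentage points in counts and by −4.19 to 1.58 with 1 library left out (0.356 without cKO 1), and the Eno2 share by −0.079 (without cKO 1) to 0.107 (−0.0079 without Ctrl 3). The Aldoa share differed by 15.1 to 25.3 points and the Pgam2 share by −20.4 to −16.1 points with 1 library left out. Depth limits Ldhb, Pck2, Adh1, Galm and Acss2, which had at most 51 counts in a library.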

Other observations

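Of the lists on other routes of glucose, the polyol and fructose list had 1 of 3 tested genes lower, the pentose phosphate list 1 of 7 and the glycogen list 1 of 12, and none was higher. Over all genes tested 13.5% were called and 7.73% were lower, so that the shares of the pentose phosphate list (14.3% called) and the glycogen list (8.33%) were near those of all genes, and the polyol list is too short to read a share from. In the polyol pathway Akr1b3, the aldose reductase that turns glucose into sorbitol and is linked to sugar cataract, was at 15.8 and 13.7 CPM in cKO and 42.4, 34.3 and 37.7 CPM in Ctrl. It fell by 1.37 (SE 0.17, edgeR adjusted p = 0.011). Sord, which oxidises sorbitol to fructose, lay above the controls in both cKO libraries and did not pass (0.50, SE 0.16, edgeR adjusted p = 0.0857). In the pentose phosphate pathway Tkt, a transketolase, was at 71.4 and 81.2 CPM in cKO and 157.5, 144.5 and 174.0 CPM in Ctrl and fell by 1.06 (SE 0.15, edgeR adjusted p = 0.0148). The other 6 tested genes of that list did not pass. Of 12 tested glycogen genes, Gbe1, the branching enzyme, fell by 1.18 (SE 0.23, edgeR adjusted p = 0.0271), while the phosphorylases Pygm, at 127.1 and 190.6 CPM in cKO and 91.4 to 118.1 CPM in Ctrl, and Pygl did not pass (0.62 and 0.23; edgeR adjusted p = 0.103 and 0.468). These calls were lost when any 1 Ctrl library was left out.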
